A study of Mus musculus with 8 samples.

Results

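The 9 genes described here encode the subunits that define canonical Polycomb repressive complex 1 (cPRC1): the PCGF proteins *Bmi1* (also called PCGF4) and *Pcgf2*, the CBX proteins *Cbx2*, *Cbx6*, *Cbx7* and *Cbx8*, and the Polyhomeotic proteins *Phc1*, *Phc2* and *Phc3*. They were found by their Entrez identifiers, and all 9 were present among the 21950 genes of the count table. RNA had been measured in 8 pools of mouse cells, 4 of d6PGCLCs and 4 of PGCs at E12.5, each from an independent experiment. PGCs are the germ cell precursors of the embryo, and PGCLCs are their counterpart grown from pluripotent stem cells by way of epiblast-like cells. The d6PGCLCs came from 1 line of iPSCs, BVSC-iPSC, which carries Blimp1-Venus and Stella-ECFP reporters. They were taken on day 8 of the whole culture, which is day 6 of the PGCLC stage, and were sorted for both reporters according to the labels. The PGCs came from female gonads of inbred C57BL/6J fetuses at E12.5 and were sorted for SSEA1 and integrin β3. The groups therefore differ in origin (culture or embryo), developmental stage, genetic background and sort at once, and these cannot be told apart in any difference below.

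PRC1 is a ubiquitin ligase of histone H2A. Its core is a RING protein, RING1 or RNF2, bound to a PCGF protein, and the PCGF protein decides which further subunits can join. In the canonical complexes a CBX protein reads the trimethyl mark that PRC2 places on histone H3, and a Polyhomeotic protein links complexes to each other through its SAM domain. In variant PRC1, RYBP or YAF2 takes the place of the CBX protein. Paralogs compete for the same position, so the make-up of the complex depends on the relative supply of each, and in germ cells Polycomb complexes keep developmental genes silent. What follows are mRNA levels. Protein and assembled complexes were not measured in these libraries.

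The libraries held 7991437 to 12024841 counted reads. Levels are given as CPM, the counts of a gene relative to a library total scaled by TMM (the scaling of edgeR between libraries), and levels of different genes are compared only as CPM per kb of counted exon. In a single library 3 counts correspond to between 0.249 and 0.383 CPM, and every member lay above 3 counts in every library. A gene is called different where its Benjamini-Hochberg adjusted p over all genes (edgeR quasi-likelihood test) is at most 0.05. Fold changes put d6PGCLCs over PGCs, so that positive values are higher in culture, and errors are SD over 4 libraries or the SE of the fit.

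The CBX and PHC families each held paralogs that were higher in d6PGCLCs and 1 that was lower, and in the PCGF pair *Bmi1* was lower while *Pcgf2* was higher by a call that 4 of 10 alternative analyses lost. *Pcgf2*, *Cbx6*, *Cbx7*, *Phc1* and *Phc2* were called higher, *Bmi1*, *Cbx8* and *Phc3* were called lower, and *Cbx2* was not called. Of the 9 members, 8 were thus called, 5 higher and 3 lower, where 31.5% of all genes were called (16.1% higher and 15.4% lower). The members are mostly abundant genes, and abundant genes were called more often: of the 8 members with a mean of at least 10 CPM, 7 were called, against 54.2% of all genes at that level. The groups did not overlap in CPM for 7 of the 9 members, against 30.2% of all genes (6 of the 8 abundant members, against 51.9%). With a change of at least 1 on the log2 scale added to the rule, 4 members remained called, against 14.7% of all genes (3 of the 8 abundant members, against 13.2%). *Cbx6* and *Cbx7* were higher by that rule, as were 8% of all genes, and *Bmi1* and *Cbx8* were lower, as were 6.75%. The median log2 fold change was 0.24 over the members and 0 over all genes.

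**Figure D1:**
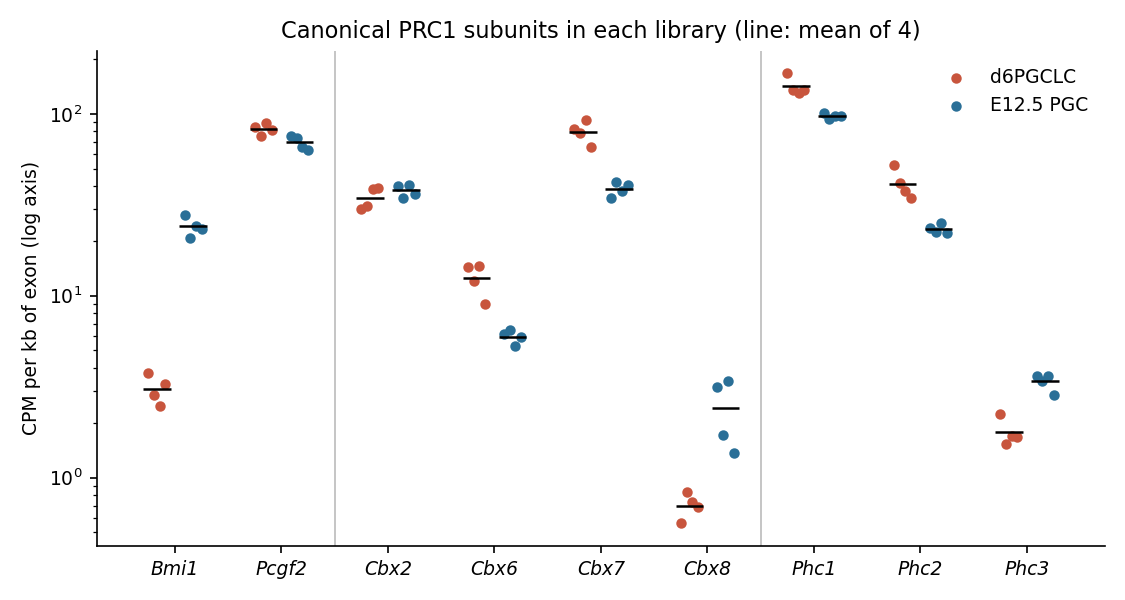
Level of each cPRC1 subunit in each library, as CPM per kb of exon on a log axis. Points are libraries, 4 d6PGCLC in red and 4 E12.5 PGC in blue, and black lines are group means; *Bmi1* lies between 2.47 and 3.74 in d6PGCLCs and between 20.8 and 27.7 in PGCs, whereas both groups of *Cbx2* overlap.

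Per kb, *Phc1* was the most abundant member in both cell types, at 141.9 CPM per kb in d6PGCLCs (129.6 to 167.1) and 97.4 (93.9 to 101.1) in E12.5 PGCs. In d6PGCLCs the order continued with *Pcgf2* (82.5 CPM per kb) and *Cbx7* (79.8), whose ranges overlapped, then *Phc2* (41.3) and *Cbx2* (34.6), which also overlapped. *Cbx6* (12.51 CPM per kb), *Bmi1* (3.08), *Phc3* (1.78) and *Cbx8* (0.701) followed, each below the range of the one before. In E12.5 PGCs *Pcgf2* (69.7 CPM per kb) came before *Cbx7* (38.7) and *Cbx2* (37.9), which overlapped, and these came before *Bmi1* (24.01) and *Phc2* (23.3), which overlapped too. *Cbx6* (5.95 CPM per kb), *Phc3* (3.38) and *Cbx8* (2.41) were lowest, the ranges of the last pair overlapping. *Bmi1* was thus among the 3 lowest members in d6PGCLCs, and level with *Phc2* in PGCs.

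*Bmi1*, known for sustaining self-renewal of several stem cell types and for repressing the *Cdkn2a* locus, showed the widest difference of the members. It lies at chr2:18677018-18686629 (GRCm38, the RefSeq gene). Its levels were 14.9, 11.4, 9.87 and 12.97 CPM in d6PGCLC replicates 1 to 4, from 107 to 119 reads a library. In E12.5 PGC replicates 1 to 4 they were 110.7, 82.9, 96.5 and 93.4 CPM, from 788 to 1047 reads. The groups lay far apart, with no overlap. *Bmi1* was 7.85-fold higher in PGCs (log2 fold change −2.97, SE 0.14, edgeR adjusted p = 8.58e-13), and it was the only member that also passed 2 on the log2 scale in size, as 6.62% of all genes did (3.37% in this direction). Of the 100-base words of its longest coding transcript, 7.21% also occur in *Gm5946*, and reads from these are not counted because only uniquely mapped reads were kept.

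*Pcgf2*, the paralog that can take the place of BMI1 next to RING1 or RNF2, lies at chr11:97688821-97702434. It stood at 246, 220, 260.3 and 239 CPM in the d6PGCLC libraries and at 222, 215, 193 and 186 CPM in the PGC libraries. The groups overlapped, since d6PGCLC replicate 2 lay below PGC replicate 1. The difference was small, 1.18-fold higher in d6PGCLCs (log2 fold change 0.24, SE 0.09, edgeR adjusted p = 0.0452). This call does not hold in every analysis: it was lost with library size as the only scaling (log2 fold change 0.21, adjusted p = 0.0963) and without d6PGCLC replicate 3, d6PGCLC replicate 4, E12.5 PGC replicate 3 or E12.5 PGC replicate 4, with adjusted p up to 0.177.

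The balance of the 2 paralogs therefore differed mostly through *Bmi1*. *Bmi1* made up 4.26, 3.66, 2.70 and 3.82% of the summed *Bmi1* and *Pcgf2* level per kb in the d6PGCLC libraries, and 26.7, 22.1, 26.8 and 26.9% in the PGC libraries. The groups did not overlap. The mean share was 3.61% ± 0.655 in d6PGCLCs and 25.6% ± 2.37 in PGCs (SD, n = 4), a difference of −22.0 percentage points (two-sided exact permutation test, p = 0.0286). That is the smallest p that 4 libraries against 4 allow, and it was 0.0327 after Benjamini-Hochberg adjustment over the 8 paralog shares compared, in which *Bmi1* and *Pcgf2* count once. *Pcgf2* exceeded *Bmi1* 27.5-fold ± 5.89 in d6PGCLCs and 2.93-fold ± 0.401 in PGCs. As a log2 ratio, *Bmi1* to *Pcgf2* was −4.76 against −1.54 (difference −3.22, two-sided exact permutation p = 0.0286, n = 4).

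**Figure D2:**
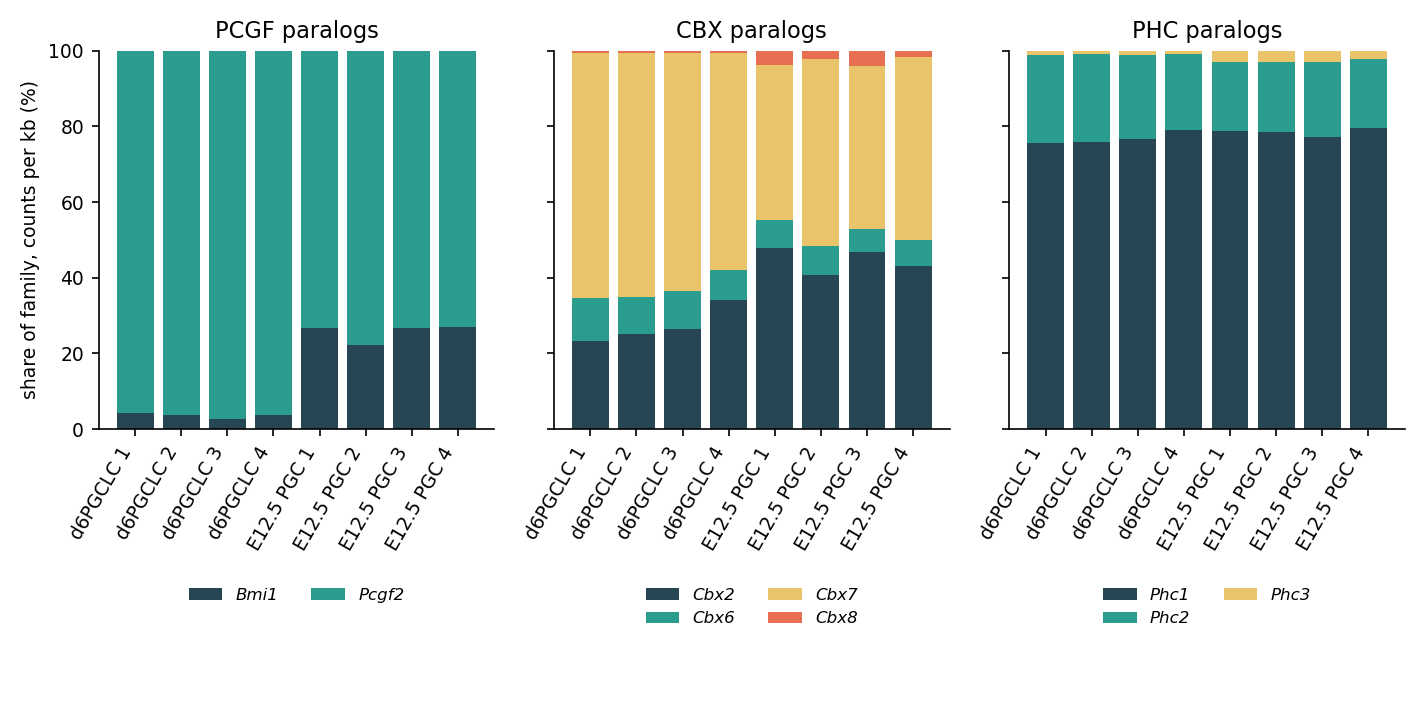
Share of each paralog in its family in each library, as a percentage of the summed counts per kb. Each bar is 1 library and its colours add up to 100%. *Bmi1* takes 2.70 to 4.26% in d6PGCLCs and 22.1 to 26.9% in PGCs. In PGCs the share of *Cbx7* is smaller and those of *Cbx2* and *Cbx8* are larger. *Phc1* takes most of every PHC bar, and its share overlaps between the groups.

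The sum of both canonical PCGF genes moved less than the balance between them. It was 85.6 ± 5.73 CPM per kb in d6PGCLCs and 93.8 ± 7.23 in PGCs. Among all 6 PCGF genes, a wider family added after the data had been seen, *Bmi1* held 1.38% ± 0.246 in d6PGCLCs and 11.2% ± 1.02 in PGCs. *Pcgf2* held 36.8% ± 2.26 and 32.5% ± 2.05. The 2 canonical genes together made up 38.2% ± 2.24 of the PCGF level in d6PGCLCs, from 35.4 to 40.5%, and 43.6% ± 1.99 in PGCs, from 41.0 to 45.7%. The rest belonged to PCGF genes of variant PRC1, mainly *Pcgf5* (28.7% and 26.4%) and *Pcgf6* (23.3% and 20.5%).

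The promoter windows of *Bmi1* and *Pcgf2* are shown because the ratio of these paralogs differed between the groups (by −3.22 on the log2 scale) and both windows hold the same letters before their starts. Sequences are from RefSeq (GRCm38.p6), 5′ to 3′ in the direction of the gene, with the E-box CACGTG in capitals. Neither window overlaps an annotated exon, and the *Pcgf2* start used by RefSeq lies inside the span of the gene given above.
Bmi1, 250 bases before the start, chr2:18676768-18677017, plus strand: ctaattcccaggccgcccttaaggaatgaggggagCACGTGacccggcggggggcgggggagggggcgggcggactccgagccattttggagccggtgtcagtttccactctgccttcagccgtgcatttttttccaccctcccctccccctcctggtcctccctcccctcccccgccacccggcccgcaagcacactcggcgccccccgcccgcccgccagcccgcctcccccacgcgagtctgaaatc
Pcgf2, 250 bases before the start, chr11:97699649-97699898, minus strand: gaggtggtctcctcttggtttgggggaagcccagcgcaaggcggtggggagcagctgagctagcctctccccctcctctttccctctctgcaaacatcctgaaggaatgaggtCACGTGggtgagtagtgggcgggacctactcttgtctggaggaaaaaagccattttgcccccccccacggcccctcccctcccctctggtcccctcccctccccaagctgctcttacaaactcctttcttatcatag

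The E-box, a palindrome that is the same on both strands and is known as a site of MYC, MAX and related factors, lies 215 bases before the start in *Bmi1* and 137 bases before it in *Pcgf2*. Just before it, both windows hold the 11 bases aaggaatgagg, which end 4 bases before the E-box in *Bmi1* and 1 base before it in *Pcgf2*. This stretch occurs, on either strand, in 12 of 32851 windows (0.037%), those of *Bmi1* and *Pcgf2* included. It was found by comparing the 20 bases before the E-box of these 2 windows after they had been read.

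Of the CBX genes, which carry the chromodomain, 2 were higher in d6PGCLCs, 1 was lower and 1 was not called. *Cbx7*, the main CBX protein of pluripotent stem cells, lies at chr15:79915804-79971143. It measured 262.4, 249.9, 293 and 208 CPM in the d6PGCLC libraries and 109, 133, 119.7 and 129 CPM in the PGC libraries. Every d6PGCLC library exceeded every PGC library, 2.06-fold on average (log2 fold change 1.04, SE 0.10, edgeR adjusted p = 6.76e-08). *Cbx6*, at chr15:79823898-79834333 and 81.5 kb from *Cbx7* with 1 annotated gene between them, was the other gene that was higher. Its levels were 48.0, 40.4, 49.0 and 30.3 CPM in d6PGCLCs and 20.6, 21.6, 17.7 and 19.9 CPM in PGCs. It was 2.11-fold higher in d6PGCLCs, again without overlap (log2 fold change 1.08, SE 0.15, edgeR adjusted p = 6.72e-06). In d6PGCLCs replicate 4 had the lowest value of both genes. Without d6PGCLC replicate 3 both differences stayed called but fell to log2 fold changes of 0.99 (*Cbx6*) and 0.96 (*Cbx7*), so that 2 rather than 4 members remained past a log2 fold change of 1. *Cbx7* also fell below 1 without E12.5 PGC replicate 1 (0.99) and with an offset for exonic length (0.96). Without d6PGCLC replicate 1 *Phc3* passed too (−1.05), which made 5 members. *Cbx6* shares 563 bp of exon with *Npcd* on the same strand, so its reads and those of *Npcd* may be mixed. The exons of *Cbx7* overlap *Apobec3* on the opposite strand over 100 bp, and the sources used here do not state whether the counting used strand.

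*Cbx2*, a CBX protein that compacts chromatin and is known for its part in gonad development, did not differ by the test. It stood at 117, 122, 153 and 153 CPM in d6PGCLCs and at 158, 136, 160.3 and 143 CPM in PGCs (log2 fold change −0.13, SE 0.10, edgeR adjusted p = 0.436). The d6PGCLC libraries split into a lower pair (replicates 1 and 2) and a pair within the PGC range (replicates 3 and 4). *Cbx8*, its neighbour at chr11:119036303-119040913, 5.0 kb away from *Cbx2* (chr11:119023019-119031275), was the rarest member in both cell types. It was counted 7, 13, 14 and 9 times in the d6PGCLC libraries and 40, 26, 59 and 24 times in the PGC libraries. In CPM this was 1.12 ± 0.178 against 3.83 ± 1.62, 3.36-fold higher in PGCs (log2 fold change −1.75, SE 0.36, edgeR adjusted p = 0.000412). The groups did not overlap, although PGC replicates 2 and 4 had about the same low level, 2.74 and 2.17 CPM, and PGC replicates 1 and 3 were higher at 4.99 and 5.44 CPM. The counted isoform of *Cbx8* is 1593 bp long and the longest coding transcript 3580 bp, so its level per kb rests on an incomplete gene model. The same holds for *Cbx6*, with 3352 bp counted and 5806 bp in the longest coding transcript.

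**Figure D3:**
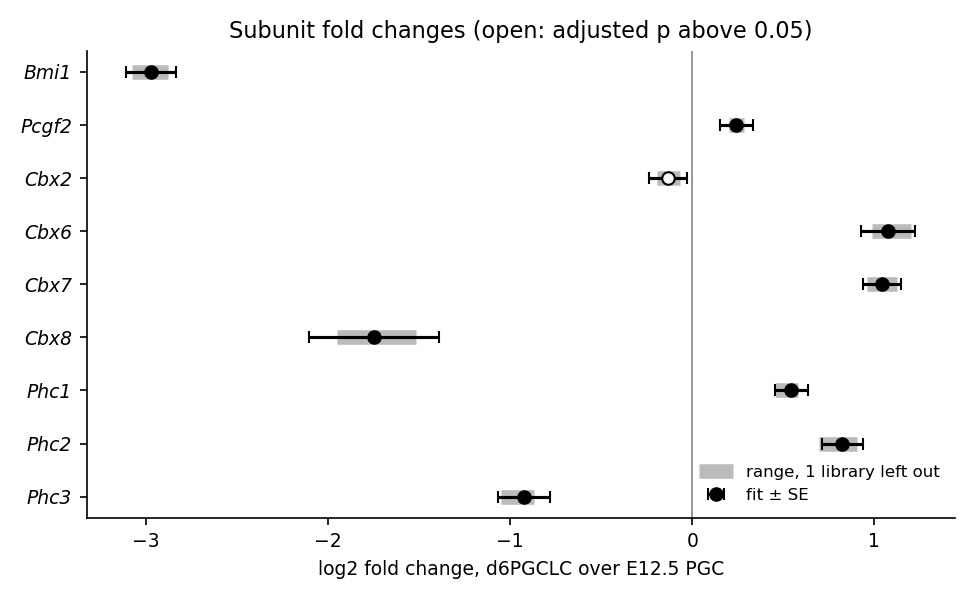
Log2 fold change of each subunit, d6PGCLC over E12.5 PGC. Points are the fit with its SE, filled where called, and grey bars span the values with 1 library left out; *Bmi1* at −2.97 stands farthest from 0, and the only open point is *Cbx2* at −0.13.

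Per kb, *Cbx7* was the leading CBX gene in d6PGCLCs and had an equal in *Cbx2* in PGCs. *Cbx7* held 64.9, 64.3, 63.1 and 57.4% of the CBX level in d6PGCLC replicates 1 to 4, and 41.0, 49.6, 43.3 and 48.4% in the PGC libraries. *Cbx2* held 23.4, 25.2, 26.4 and 34.1% in d6PGCLCs and 47.9, 40.7, 46.7 and 43.0% in PGCs. Neither pair of groups overlapped. The means differed by 16.8 percentage points for *Cbx7* (62.4% ± 3.44 and 45.6% ± 4.08) and by −17.3 for *Cbx2* (27.3% ± 4.71 and 44.6% ± 3.31). *Cbx6* differed by 2.74 points (9.74% ± 1.37 and 7.01% ± 0.672) and *Cbx8* by −2.27 (0.554% ± 0.106 and 2.82% ± 1.17). From raw counts the difference of *Cbx8* was −1.03 points. Each of these 4 shares gave the smallest p of the design (two-sided exact permutation, p = 0.0286, n = 4; 0.0327 adjusted over the 8 shares). Shares of a family add up to 100%, so they are not independent: the share of *Cbx2* was lower in d6PGCLCs while its own level did not differ by the test. The ratio of *Cbx7* to *Cbx2*, a pair picked after the data had been seen and so given without a test, was 2.35-fold ± 0.471 in d6PGCLCs and 1.03-fold ± 0.168 in PGCs. The summed level of the 4 CBX members was 128 ± 13.8 CPM per kb in d6PGCLCs and 85.0 ± 1.46 in PGCs.

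**Figure D4:**
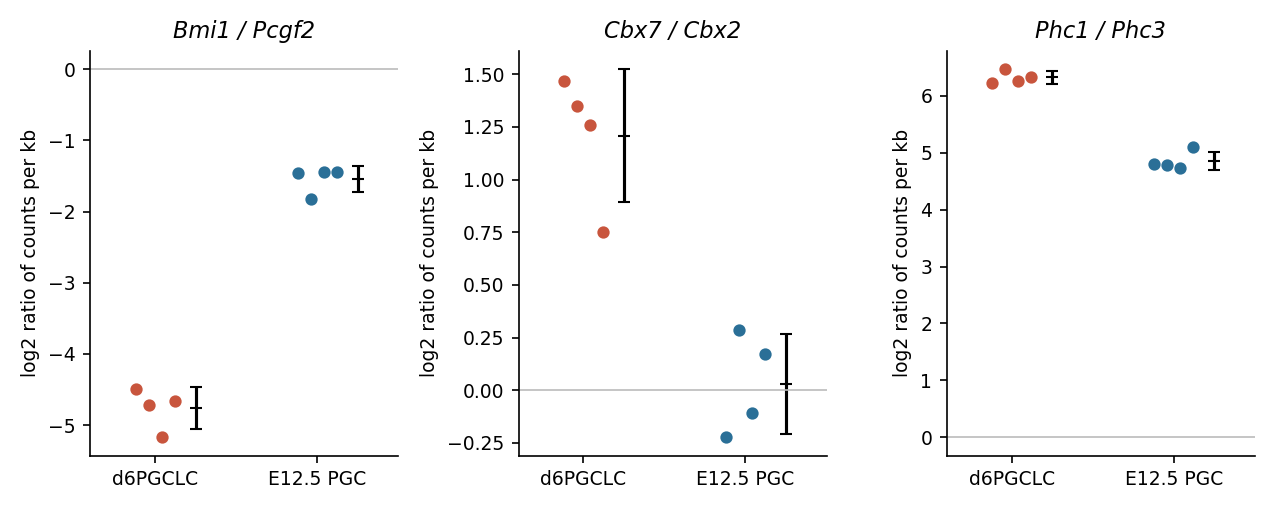
Log2 ratio of counts per kb for a pair of paralogs in each PRC1 family. Points are libraries and bars the mean ± SD of 4; *Bmi1* to *Pcgf2* averages −4.76 in d6PGCLCs and −1.54 in PGCs, *Cbx7* to *Cbx2* 1.21 and 0.03, and *Phc1* to *Phc3* 6.32 and 4.86 (the CBX and PHC pairs were picked after the data had been seen).

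Among the Polyhomeotic genes, *Phc1* and *Phc2* were higher in d6PGCLCs and *Phc3* was lower. *Phc1*, at chr6:122317731-122340227 and the prevalent Polyhomeotic gene of pluripotent cells, measured 537, 436, 416 and 434 CPM in d6PGCLCs and 324, 301, 310.5 and 314 CPM in PGCs. The groups did not overlap and the PGC libraries were close to each other (1.46-fold, log2 fold change 0.54, SE 0.09, edgeR adjusted p = 5.61e-05). *Phc2*, at chr4:128654655-128752881, stood at 236.5, 188, 171 and 156 CPM in d6PGCLCs and at 107, 101, 114 and 101 CPM in PGCs. It was 1.77-fold higher in d6PGCLCs (log2 fold change 0.82, SE 0.11, edgeR adjusted p = 4.36e-06). *Phc3*, at chr3:30899295-30969479, had 26.0, 17.9, 19.8 and 19.4 CPM in d6PGCLCs and 42.4, 39.5, 42.4 and 33.3 CPM in PGCs. It was 1.90-fold higher in PGCs, without overlap (log2 fold change −0.93, SE 0.14, edgeR adjusted p = 2.29e-05). All 3 genes had their highest d6PGCLC value in replicate 1, as did *Bmi1*.

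The make-up of the PHC family nevertheless hardly differed in its main part. *Phc1* held 76.8% ± 1.53 of the summed PHC level per kb in d6PGCLCs and 78.5% ± 1.02 in PGCs, and the groups overlapped (difference −1.69 points, two-sided exact permutation, p = 0.143, n = 4). From raw counts, which do not correct for length, this difference was 0.436 points, so that its direction is not settled. *Phc2* held 22.2% ± 1.54 and 18.8% ± 0.83, a difference of 3.45 points. *Phc3* held 0.961% ± 0.0693 and 2.72% ± 0.268, a difference of −1.76 points (−5.47 from raw counts). Both gave the smallest p of the design (two-sided exact permutation, p = 0.0286, n = 4; 0.0327 adjusted over the 8 shares). *Phc3*, with 11666 bp of counted exon the longest of the members, is much less prominent per kb than in CPM. As a log2 ratio, *Phc2* to *Phc1*, the leading pair, averaged −1.79 in d6PGCLCs and −2.06 in PGCs. The groups overlapped (−1.98 to −1.68 and −2.14 to −1.95), and the pair was picked after the data had been seen. The summed PHC level was 185 ± 24.6 CPM per kb in d6PGCLCs and 124 ± 3.73 in PGCs.

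The summed levels can be set beside those of the RING ligases, which every PRC1 contains. *Ring1* and *Rnf2* together measured 62.4 ± 2.77 CPM per kb in d6PGCLCs and 75.4 ± 5.85 in PGCs. *Rnf2*, the more abundant ligase, was slightly lower in d6PGCLCs (183 ± 6.26 and 224 ± 23.4 CPM, log2 fold change −0.30, edgeR adjusted p = 0.0157). *Ring1* was not called (24.7 ± 3.50 and 27.5 ± 2.68 CPM, log2 fold change −0.16, adjusted p = 0.517).

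The other genes of the pathway were described from lists. Of the 3 SCM family genes *Scmh1*, *Scml2* and *Scml4*, which encode cPRC1 partners, 1 was higher, 1 lower and 1 not called in d6PGCLCs: *Scml2* was lower (6.90 ± 2.02 and 65.3 ± 19.0 CPM, log2 fold change −3.25, adjusted p = 7.14e-11) and *Scml4* higher (6.82 ± 3.16 and 0.835 ± 0.289 CPM, log2 fold change 3.05, adjusted p = 1.28e-06). Of 25 variant PRC1 genes in the table, 4 were higher, 10 lower and 11 not called, and their median log2 fold change was −0.16. The share called is close to the 54.2% of all abundant genes (31.5% of all genes). The widest differences were those of *Auts2*, a partner of PCGF3 and PCGF5 (−1.34, adjusted p = 2.52e-07), *Yaf2*, the RYBP homologue (−1.21, adjusted p = 2.31e-05), and *Kdm2b*, which brings PCGF1 complexes to CpG islands (−0.95, adjusted p = 2.85e-06). Of 11 PRC2 genes, whose product CBX proteins read, 6 were higher, 1 lower and 4 not called, to be read against the same background shares, with a median log2 fold change of 0.31. *Epop*, a PRC2 partner, was higher (1.45, adjusted p = 6.95e-09), as was the accessory subunit *Aebp2* (0.62, adjusted p = 2.58e-05). *Ezhip*, an inhibitor of PRC2, was lower (3.80 ± 2.16 and 24.6 ± 4.61 CPM, log2 fold change −2.73, adjusted p = 3.14e-07). Of 9 genes of the H2A deubiquitinases, which take off the mark of PRC1, 3 were higher, 5 lower and 1 not called, again to be read against 31.5% of all genes and 54.2% of the abundant ones. *Asxl3* (−1.55, adjusted p = 0.00297) and *Usp16* (−0.82, adjusted p = 4.88e-05) were lower and *Ogt* was higher (0.80, adjusted p = 3.58e-07). *Asxl3* was sparse, with 4 to 13 counts in a d6PGCLC library and 23 to 30 in a PGC library.

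**Figure D5:**
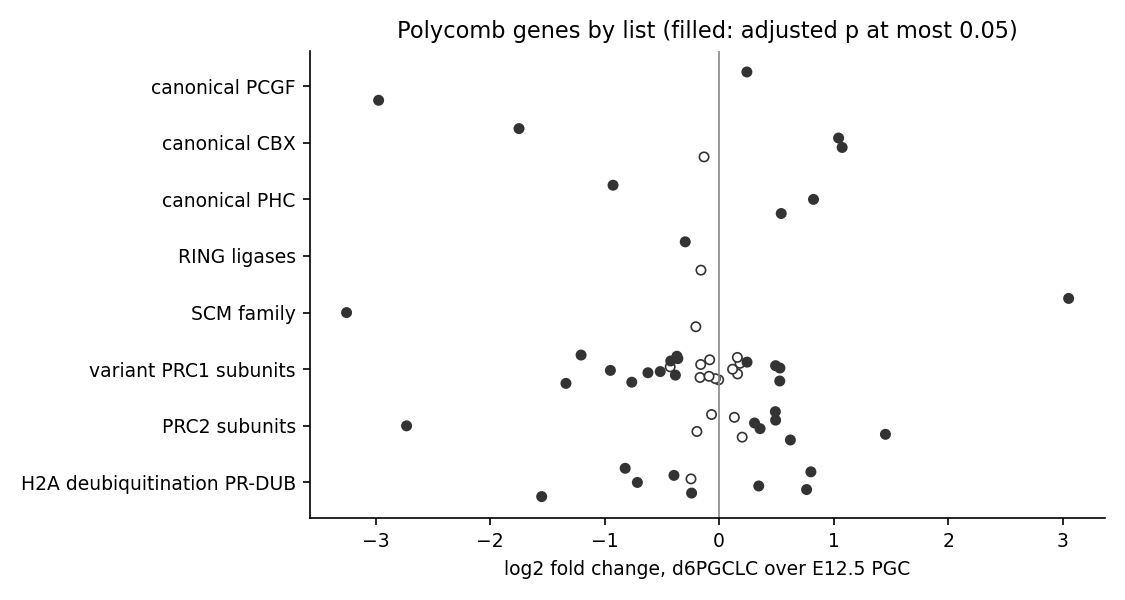
Log2 fold change, d6PGCLC over E12.5 PGC, of the cPRC1 members and of other Polycomb genes by list. Each point is a gene, filled where called; within each canonical family filled points lie on both sides of 0, and the variant PRC1 genes lie between −1.34 and 0.53.

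Well-known target genes of PRC1 were mostly silent or low. Of 32 *Hox* genes in the table, 28 had at most 3 counts in every library. Against 31.5% of all genes, 2 of the 32 were called, both lower in d6PGCLCs (*Hoxa10* and *Hoxb9*). *Hoxa10* was counted at most 2 times in a d6PGCLC library and between 5 and 14 times in a PGC library. Of the INK4 and ARF genes, *Cdkn2a*, the classical target of BMI1, measured 9.37 ± 2.94 CPM in d6PGCLCs and 10.6 ± 1.72 CPM in PGCs (log2 fold change −0.18, adjusted p = 0.655). *Cdkn2b* was lower in d6PGCLCs (0.891 ± 0.604 and 2.37 ± 0.458 CPM, log2 fold change −1.45, adjusted p = 0.00706).

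Marker genes moved with the comparison, and their part in the subunit differences was not tested. All 10 germ cell markers were detected in both groups. Of these, 5 were called higher in d6PGCLCs and 3 lower, among them *Prdm1* (1.21 log2, higher) and *Fut4* (−3.48 log2, lower), which encodes a fucosyltransferase. *Prdm1* and *Dppa3* are the genes of the Blimp1-Venus and Stella-ECFP reporters used to sort the d6PGCLCs. *Itgb3* encodes integrin β3, used to sort the PGCs. Levels of these markers are therefore not independent of how the cells were selected. All 4 markers of later germ cells (*Dazl*, *Ddx4*, *Mael* and *Sycp3*) were lower in d6PGCLCs, with a summed level of 57.4 to 133 CPM against 1748 to 2536 CPM. Markers of gonadal somatic cells summed to 0.664 to 1.82 CPM in d6PGCLCs and 3.70 to 8.52 CPM in PGCs, with 5 of 9 called lower in d6PGCLCs. Of 8 epiblast and mesoderm markers 6 were lower in d6PGCLCs (7.27 to 9.32 against 13.1 to 19.5 CPM). Of 6 blood and endothelial markers 1 was higher (19.9 to 34.6 against 14.4 to 24.4 CPM), and the blood marker *Ptprc* was at or near 0. Counts of called markers are to be read against 31.5% of all genes (16.1% higher and 15.4% lower) and 54.2% of the abundant ones. In pooled cells, fewer expressing cells and less RNA per cell cannot be told apart.

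The promoter windows of the members had the E-box in common more widely. The RefSeq promoter table used here covers 8 of the 9 members, and *Cbx2* was not analysed. Of these 8, 6 hold CACGTG within the 250 bases before a start: *Bmi1*, *Pcgf2*, *Cbx6*, *Cbx8*, *Phc2* and *Phc3*. Of the 3 starts of *Phc2* 1 has it, and the E-box window of *Cbx6* overlaps an annotated exon of *Cbx6*. The same letters stand in 6.02% of all 32851 windows, in 6.86% of 27025 genes, and in 9.43% of the 15567 genes with a window of at least 5 CG dinucleotides, a group to which all 8 belong. The 30 bases around each E-box are given below to show that the letters beside it are alike in several members.
Bmi1, chr2:18676791-18676820, plus strand: gaatgaggggagCACGTGacccggcggggg
Pcgf2, chr11:97699768-97699797, minus strand: aaggaatgaggtCACGTGggtgagtagtgg
Cbx6, chr15:79834342-79834371, minus strand: ggcccggagcatCACGTGacggcccgcagc
Cbx8, chr11:119040994-119041023, minus strand: cgtcgttagcaaCACGTGgggcgggaggaa
Phc2, chr4:128654633-128654662, plus strand: ggctggagtgggCACGTGacactctccggt
Phc3, chr3:30969480-30969509, minus strand: agtcgctggcctCACGTGacctctgcgccc

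In 5 of these genes, *Cbx8* being the exception, the wider motif CACGTGAC or its reverse complement GTCACGTG is present, which 2.11% of all genes and 3.31% of those rich in CG hold. The E-box lies 26 bases before the start in *Cbx6*, 57 in *Phc2*, 82 in *Phc3* and 98 in *Cbx8*. The 6 genes include members higher in d6PGCLCs (*Pcgf2*, *Cbx6* and *Phc2*) and members lower there (*Bmi1*, *Cbx8* and *Phc3*). The motif was picked after the sequences had been read, and a match is no evidence that a factor binds there.

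The genes whose log2(CPM + 0.1) ran most like each member across the 8 libraries were listed among those with a mean of at least 5 CPM. The libraries share the difference between the groups, and 1252 of 9277 genes reached a Pearson r of 0.9 with *Bmi1*. The closest to *Bmi1* were *Zfx* (r = 0.998), *Smarca2* (0.997) and *Wbp2nl* (0.997). *Cbx7* had *Rad51d* (0.994), *Tmem161a* (0.993) and *Leprotl1* (0.990), and *Cbx6* had *Arrdc1* (0.989), *Lamb2* (0.988) and *Dhx34* (0.987). *Phc1* ran with *Arl8a* (0.996), *Hk2* (0.995) and *Dnm1l* (0.994), *Phc2* with *Sft2d2* (0.994) and *Src* (0.989), and *Phc3* with *Ankib1* (0.992), *Sema3f* (0.992) and *Uggt2* (0.987). For the sparse *Cbx8* the closest were *Usp30* (0.988), *Pibf1* (0.977) and *Pygo1* (0.968). *Pcgf2* and *Cbx2*, whose groups overlap, had only 36 and 29 genes at an r of 0.9, led by *Cebpb* (0.967) and *Tead3* (0.963) for *Pcgf2* and by *Zfp738* (0.962), *Ppp1r9b* (0.949) and *Lrrc8d* (0.948) for *Cbx2*. These values describe the 8 libraries and carry no test.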

How the data were processed

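The authors deposited a table of raw counts per gene, not normalized, from stranded poly(A) libraries of single-end reads. Reads were aligned with STAR to GRCm38 (mm10) with ERCC sequences added, and uniquely mapped reads were counted with QuasR on the exons of an isoform drawn at random for each gene. The deposited exonic length of that isoform gave counts per kb, so a level per kb depends on the isoform drawn, and a fold change covers only the exons of that isoform. Genes with overlapping promoters had been removed at random. Strand use in counting is not given in the sources used here.

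Of 21950 identifiers, 21907 matched a RefSeq symbol (GRCm38.p6), and exon overlaps were taken from GENCODE M21. No pair of libraries of a group agreed as closely as repeat counts of 1 library would (chi-square over its degrees of freedom 3.35 to 22.1). In R 4.3.3, edgeR 4.0.16 (TMM, glmQLFit and glmQLFTest, prior count 0.125, cell type as the only term, no filter on low counts) tested all genes with Benjamini-Hochberg adjustment, where the study used a likelihood ratio test. Paralog shares were compared by a two-sided exact permutation of the 8 libraries (Python 3.11.15). At most 3 counts in every library was taken as the limit of detection, for counting error only. Also tried were DESeq2 1.42.0, the study's likelihood ratio test, other scalings, filters (filterByExpr, CPM above 1 in at least 3 samples), a prior count of 2, a replicate block, an offset for exonic length (loess, span 0.5), raw counts or a wider family for shares, and leaving out each library.

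The members and lists were chosen with earlier results of these data known. All 9 members are named; from each list of Polycomb genes the 3 called genes with the largest change and a mean of at least 1 CPM, and both RING ligases; and for each member the 3 genes with the highest r. *Hoxa10*, *Hoxb9*, the INK4 and ARF genes and single markers were named besides. The results of some genes named by this rule are not reported here. The tests were tried on simulated counts.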

Additional observations from a re-analysis of the deposited data

Results flagged for a closer look

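Among 34 sets of 4 libraries (CPM and family share of each member, in each group), 3 held a library whose gap to the nearest of the others was large for the range of the group (Dixon's criterion). Chance flags about 1 set in 20. *Phc1* stood at 537 CPM in d6PGCLC replicate 1, against 416 to 436 in the other d6PGCLC libraries. *Bmi1* held 22.1% of the PCGF level in E12.5 PGC replicate 2, against 26.7 to 26.9% in the others, which is still above every d6PGCLC library. *Phc3* held 2.32% of the PHC level in E12.5 PGC replicate 4, against 2.83 to 2.90% in the others, also above every d6PGCLC library.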

How the results depend on the processing

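Apart from leaving out libraries, 10 alternative analyses of the fold changes and the alternatives for shares gave 125 values. Of these, 120 kept their direction and their side of the test's threshold or, for a count of members, stayed within 1.5 times, 4 lost the call and 1 changed sign. The 4 all concern *Pcgf2*, whose log2 fold change was 0.21 with library size only, 0.23 with DESeq2 size factors, 0.20 with upper quartile scaling and 0.15 with the length offset (adjusted p = 0.0963, 0.0614, 0.114 and 0.177, edgeR), so that 4 rather than 5 members were called higher there. The sign changed for the *Phc1* share, from −1.69 to 0.436 points with raw counts. These causes were not tested. Some of the values that stayed the same could not have differed. A prior count of 2 left the adjusted p of every member unchanged. Gene lengths cancel in the difference of the log2 ratio of *Bmi1* to *Pcgf2*, and the share of *Pcgf2* mirrors that of *Bmi1*. With 1 library left out, 4 to 5 members were called higher and 3 lower, the log2 fold change of *Pcgf2* ranged from 0.20 to 0.29, and that of *Bmi1* from −3.08 to −2.88. Among all 6 PCGF genes the share of *Bmi1* differed by −9.79 points, an alternative chosen after seeing the data. Whether the replicate numbers pair the samples is not settled by these values. Libraries of the same number correlated at −0.082 to 0.376, and 2 of 4 d6PGCLC libraries correlated best with their own number. With the replicate block 5 members were called higher and 3 lower as before, and 7270 genes rather than 6919. Depth limits *Cbx8* most, with 7 to 14 reads in the d6PGCLC libraries.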
